A study of Mus musculus with 8 samples.

Results

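Casq2, Mapk15, Slc25a34, Ube2k, Sertad4, Nme1, Kcnh3, Reep1, Dab2 and Wdr95 are 10 genes, out of 12416 measured in both assays, whose ribosome footprints and total RNA differed unlike each other between eIF4A2 knockdown and control cells. They were chosen by the measured knockdown difference itself, which was not the same in footprints as in RNA, so the size and direction of that disagreement are given as a description. The fits ran over all genes, and no p-value is read for the 10. The cells were mouse embryonic stem cells of the J1 line (strain 129S4/SvJae), kept without feeders in serum with LIF. Knockdown cells carried shRNA against eIF4A2 (sheIF4A2-2 or sheIF4A2-3) and control cells carried shNT or shGFP. All had been selected with puromycin at 1 μg/mL for 3 days and all received cycloheximide at 0.1 mg/mL for 1 min before lysis on day 4.5. Each condition had 2 footprint libraries and 2 total RNA libraries, which makes 8 libraries in 4 groups. Per the labels' protocol the 2 libraries of a group are biological replicates, but they do not say which shRNA went into which.

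A ribosome shields the stretch of mRNA on which it sits from nuclease, and sequencing those shielded fragments (footprints) counts ribosomes per gene, while total RNA counts the transcript itself. The quotient of the 2 is widely used as a measure of translation per transcript. eIF4A2 is a DEAD-box RNA helicase related to eIF4A1, the helicase of the cap-binding complex that opens structure in the leader of an mRNA for the small ribosomal subunit, and eIF4A2 is also known to bind the CCR4-NOT complex, which represses and deadenylates mRNAs. A gene can thus have more or fewer ribosomes without a matching difference in its RNA, and the reverse. In bulk cultures a difference in RNA per cell and a difference in the share of cells that make the RNA cannot be told apart.

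Levels are CPM (reads per gene after the authors' division by an effective library size), read within 1 gene and 1 assay. Read numbers recovered from the tables came to between 7947827 and 10682677 per footprint library and between 8564582 and 12840349 per RNA library. Eif4a2, the target of the shRNA, had 311 and 153 CPM of footprints in the knockdown, against 395 and 409 CPM in the control. Its RNA stood at 583 and 617 CPM in the knockdown, against 739 and 969 CPM in the control. Both assays therefore had less Eif4a2 in each knockdown library than in each control library, with a part of it left. Lower knockdown groups without overlap were found in 22.4% of all genes in footprints and 24.6% in RNA. The authors' deposited FDR for Eif4a2, listed with a likelihood ratio, was 0.24 in footprints and 0.22 in RNA. Summed CPM of 10 stem cell markers was 5131 to 5157 in knockdown RNA and 6421 to 7293 in control RNA. Pou5f1, Zfp42 and Dppa5a were the most abundant in that sum. In RNA 7 of the 10 were lower and 1 higher with no overlap between groups (24.6% and 23.3% of all genes). Over genes at 10 CPM or more, the log2 difference of the knockdown RNA replicates had an SD of 0.135, while that of the control RNA replicates had an SD of 0.45.

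Casq2 and Mapk15 had more footprints and less RNA in the knockdown, with no overlap between groups in either assay. Casq2 encodes calsequestrin 2, the protein that holds calcium in the sarcoplasmic reticulum of heart muscle. Its footprints were at 23.1 and 23.2 CPM in the knockdown, against 7.86 and 6.94 CPM in the control. The replicates lay close together and the groups were far apart, with a log2 difference of 1.53 ± 0.22 (SE, on log2(CPM + 1) as for all such values here, which understates differences of genes with few reads). Casq2 RNA was at 0.868 and 0.902 CPM in the knockdown, against 1.03 and 1.66 CPM in the control (-0.30 ± 0.23). The RNA groups did not overlap, but they rest on 11 and 12 reads in the knockdown, against 9 and 15 in the control. An exact 95% Poisson interval around 9 reads runs from 4.12 to 17.1 and includes the other 3 values, and such intervals cover counting error only. The direction of the RNA difference cannot be read at this depth. Of 12 striated muscle markers 6 were measured in RNA, with Myod1, Myog and Acta1 not among them and none of the 6 at 0, and their summed RNA was 326 to 391.5 CPM in the knockdown, against 240.0 to 306 CPM in the control. Ttn was the most abundant of them. In RNA 3 of the 6 were higher and 0 lower with no overlap between groups (23.3% and 24.6% of all genes). In footprints 9 of the 12 were measured, at 181 to 241 CPM in the knockdown, against 200.01 to 209 CPM in the control. There 2 were higher and 0 lower without overlap (22.4% of all genes each way). The part of muscle markers in the Casq2 difference was not tested.

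Mapk15, an atypical member of the MAP kinases, was less even between replicates. Footprints came to 15.4 and 43.9 CPM in the knockdown, against 9.13 and 4.06 CPM in the control (log2 difference 1.92 ± 0.48). Knockdown replicate 2 stood far above knockdown replicate 1, and without it the change in the footprint-to-RNA ratio was 1.58 in place of 2.31 (log2). RNA stood at 1.34 and 0.977 CPM in the knockdown, against 1.37 and 2.33 CPM in the control (-0.39 ± 0.25). Knockdown replicate 1 (17 reads) and control replicate 1 (12 reads) were almost level in CPM, so the RNA groups only just missed each other.

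Slc25a34 and Ube2k showed the mirror image, fewer footprints and more RNA in the knockdown, and both had ample reads. Slc25a34 belongs to the SLC25 family, carriers of the inner mitochondrial membrane. Its footprints reached 115 and 129.8 CPM in the knockdown, against 177 and 198 CPM in the control (-0.61 ± 0.16). Its RNA reached 18.9 and 19.8 CPM in the knockdown, against 13.9 and 12.9 CPM in the control (0.50 ± 0.16). No library of one condition crossed into the range of the other in either assay, with at least 1020 footprint reads and at least 116 RNA reads in each. Ube2k is an E2 enzyme that builds ubiquitin chains of the kind that mark proteins for the proteasome. It had 114 and 119 CPM of footprints in the knockdown, against 129.6 and 150.5 CPM in the control (-0.26 ± 0.16). Its RNA was at 139 and 141 CPM in the knockdown, against 112 and 98.4 CPM in the control (0.41 ± 0.14). The differences were small and the groups still did not overlap in either assay.

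**Figure D1:**
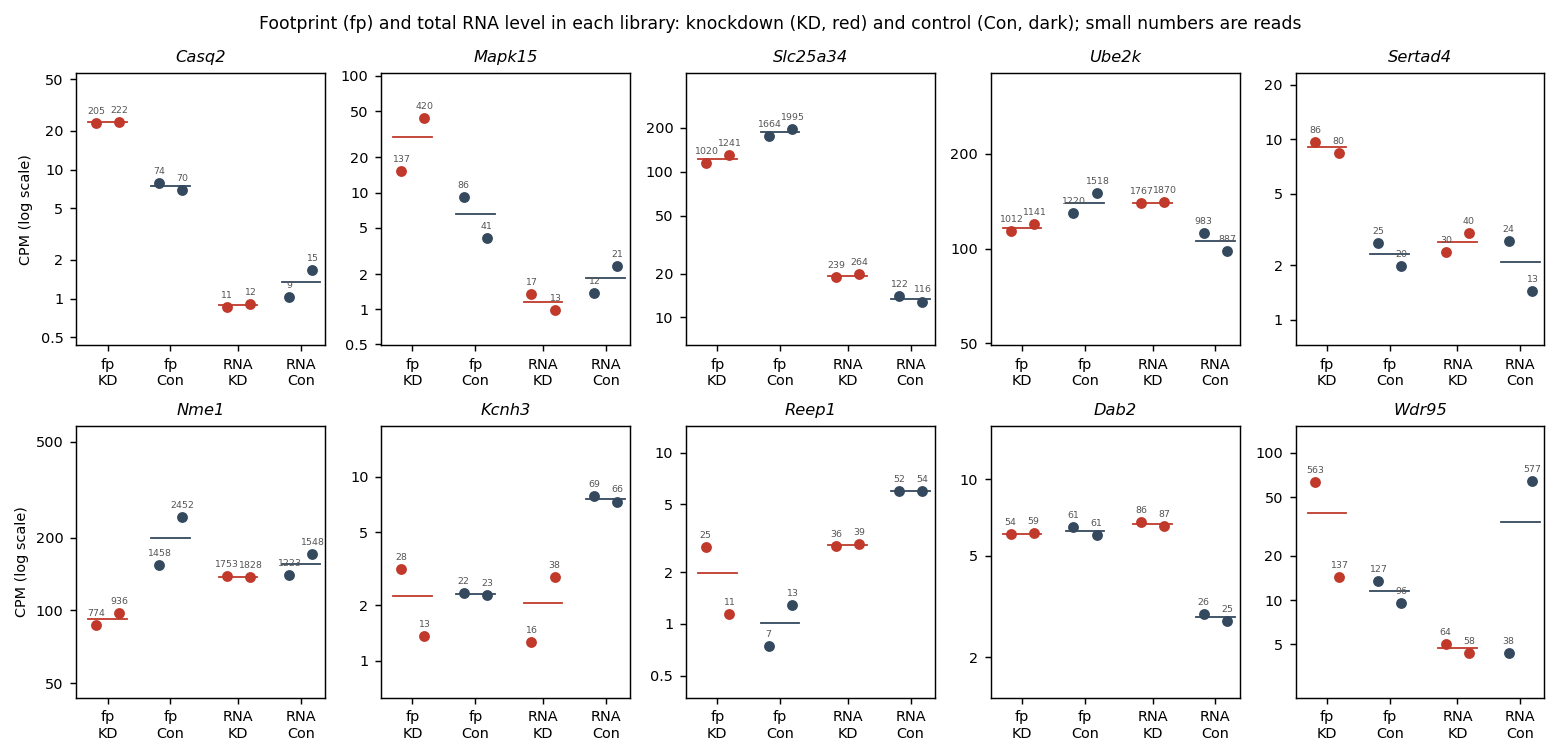
Level of the 10 genes in each of the 8 libraries, in CPM on a log axis, with footprints (fp) and total RNA side by side, knockdown in red and control in dark. Points are libraries, lines are group means and the small numbers are reads; the 2 Wdr95 groups whose points lie farthest apart hold libraries at 63.3 and 14.3 CPM (footprints, knockdown) and at 4.34 and 64.0 CPM (RNA, control).

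The arrangement of these 4 genes, with groups that do not overlap in either assay and that lie in opposite directions, was found in 224 of the 12416 genes (1.8%). It is part of what the genes were picked for, so nothing is read from its frequency among them. With opposite directions of the group means alone the share was 27.9% of all genes, and 7 of the 10 genes met it. The number with opposite, non-overlapping groups was 4 to 6 when 1 library was left out. Leaving out a library cannot create an overlap, so this number could not fall below 4 and says nothing about stability. Groups failed to overlap in exactly 1 assay for Sertad4, Wdr95, Kcnh3, Reep1 and Dab2, which is 5 of the 10 genes (40.4% of all genes).

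Sertad4 and Nme1 had footprint groups that did not overlap and smaller differences in RNA. Sertad4, one of the small group of SERTA domain genes, had 9.68 and 8.37 CPM of footprints in the knockdown, against 2.66 and 1.98 CPM in the control (1.60 ± 0.29). Its RNA had 2.37 and 3.01 CPM in the knockdown, against 2.74 and 1.44 CPM in the control (0.28 ± 0.27), and the groups overlapped. The RNA difference was -0.03 without control replicate 2 and 0.59 without control replicate 1. The footprint reads were 86 and 80 in the knockdown, against 25 and 20 in the control, few but well apart.

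Nme1 encodes a nucleoside diphosphate kinase, an enzyme that keeps the cellular nucleoside triphosphates in balance. Its footprints amounted to 87.1 and 97.9 CPM in the knockdown, against 155 and 243 CPM in the control (-1.06 ± 0.22). The control replicates were well apart from each other, and the difference was -0.74 without control replicate 2 and -1.39 without control replicate 1. Nme1 RNA amounted to 138 and 137 CPM in the knockdown, against 139.7 and 172 CPM in the control (-0.17 ± 0.15). Unlike those of Sertad4, its RNA groups did not overlap either, in the same direction as its footprints (24.6% of all genes had lower RNA without overlap). Control replicate 1 was almost level with the knockdown. The RNA difference was -0.02 without control replicate 2 and -0.31 without control replicate 1, so its size rests on control replicate 2. Nme2, a close paralog that lies next to Nme1 in the RefSeq gene table, had a mean of 7.12 CPM of footprints in the knockdown, against 6.09 CPM in the control, and 22.5 CPM of RNA in the knockdown, against 25.9 CPM in the control. No source used here states how short reads were split between these paralogs, so the values of both are uncertain.

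Kcnh3, Reep1 and Dab2 had RNA groups far apart and footprint groups that overlapped. Kcnh3 is a voltage-gated potassium channel known from brain. Its RNA lay at 1.26 and 2.86 CPM in the knockdown, against 7.88 and 7.32 CPM in the control (-1.54 ± 0.29). Those RNA levels stand for 16 and 38 reads in the knockdown, against 69 and 66 in the control. Its footprints lay at 3.15 and 1.36 CPM in the knockdown, against 2.34 and 2.28 CPM in the control (-0.08 ± 0.37). The knockdown footprint libraries, with 28 and 13 reads, lay on either side of both control libraries, and the difference was 0.33 without knockdown replicate 2 and -0.49 without knockdown replicate 1.

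Reep1 shapes tubules of the endoplasmic reticulum, and its human counterpart is mutated in a form of hereditary spastic paraplegia. RNA levels were 2.84 and 2.93 CPM in the knockdown, against 5.94 and 5.99 CPM in the control (-0.84 ± 0.18), with replicates that agreed closely. The RNA reads were 36 and 39 in the knockdown, against 52 and 54 in the control. Footprint levels were 2.81 and 1.15 CPM in the knockdown, against 0.744 and 1.29 CPM in the control (0.52 ± 0.40). Those levels stand for 25 and 11 reads in the knockdown, against 7 and 13 in the control, and the groups overlapped. The footprint difference of Reep1 was 0.11 without knockdown replicate 1 and 0.93 without knockdown replicate 2, so it cannot be read at this depth. Kcnh3 and Reep1 are both genes of neurons. Of 12 neuronal markers 10 were measured in RNA, none at 0 and without Snap25 and Dcx, and their sum was 164.1 to 164.2 CPM in the knockdown, against 151 to 157 CPM in the control. In footprints 8 of the 12 were measured, at 178 to 212 CPM in the knockdown, against 167 to 213 CPM in the control. Tubb3 was the most abundant marker in that sum. Of the 10 markers in RNA, 4 had lower and 1 had higher knockdown values with no overlap between groups (24.6% and 23.3% of all genes), and the median log2 difference was -0.09, against -0.0024 over all genes tested. The part of neuronal markers in the RNA differences of Kcnh3 and Reep1 was not tested.

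Dab2 is a clathrin adaptor that carries receptors into endocytic vesicles and is a known product of primitive endoderm. RNA was at 6.79 and 6.54 CPM in the knockdown, against 2.97 and 2.77 CPM in the control (0.99 ± 0.18). Footprints were at 6.08 and 6.17 CPM in the knockdown, against 6.48 and 6.05 CPM in the control (-0.03 ± 0.26). All 4 footprint libraries held between 54 and 61 reads, while the RNA groups stood far apart. The RNA reads were 86 and 87 in the knockdown, against 26 and 25 in the control. Of 11 primitive endoderm markers (Dab2 not counted) 9 were measured in RNA, without Sox17 and Foxa2 and with none at 0. Their sum was 289 to 331 CPM in the knockdown, against 555 to 598 CPM in the control, and Lama1, Lamb1 and Col4a1 were the most abundant of the list. Of the 9 markers in RNA, 5 had lower and 2 had higher knockdown values with no overlap between groups (24.6% and 23.3% of all genes). Their median log2 difference was -0.38, against -0.0024 over all genes tested. In footprints, with 10 of the 11 measured, the sum was 443 to 498 CPM in the knockdown, against 679 to 772 CPM in the control. The part of primitive endoderm markers in the Dab2 RNA difference was not tested.

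Wdr95, a WD40 repeat gene, had the largest fitted disagreement of all genes, and 2 libraries carry it. Its footprints were 63.3 and 14.3 CPM in the knockdown, against 13.5 and 9.51 CPM in the control (1.35 ± 0.55). Its RNA was 5.05 and 4.36 CPM in the knockdown, against 4.34 and 64.0 CPM in the control (-1.71 ± 1.06). Knockdown replicate 1 of the footprints and control replicate 2 of the RNA each stood several times above the other 3 libraries of their assay, with 563 and 577 reads. Without the first the footprint difference was 0.31, and without the second the RNA difference was 0.09, no longer negative. The remaining RNA libraries held 38 to 64 reads and were nearly level.

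Other genes were also high in 1 library alone. With a value at least 2 times that of every other library of the assay and at least 10 reads, 182 genes stood out in footprint knockdown replicate 1 and 40 in knockdown replicate 2, against 24 in control replicate 1 and 51 in control replicate 2. In RNA 1 gene stood out in each knockdown replicate, against 48 in control replicate 1 and 35 in control replicate 2. The sets of footprint knockdown replicate 1 and RNA control replicate 2 shared 8 genes, namely Wdr95, Tmem44, Mical2, Zfy1, Ebf4, Ccdc87, Rpl38-ps2 and Gm23230, which is 4.4% of the first set and 22.9% of the second. Over the other 15 pairs of a footprint and an RNA library the largest number shared was 1. This count was made after the values of Wdr95 had been seen. Among the 10 genes Wdr95 alone was in that shared set. Mapk15 and Reep1 also stood out in 1 footprint library each. Mapk15 did so in knockdown replicate 2, at 43.9 CPM against at most 15.4 CPM elsewhere. Reep1 did so in knockdown replicate 1, at 2.81 CPM (25 reads) against at most 1.29 CPM elsewhere.

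**Figure D2:**
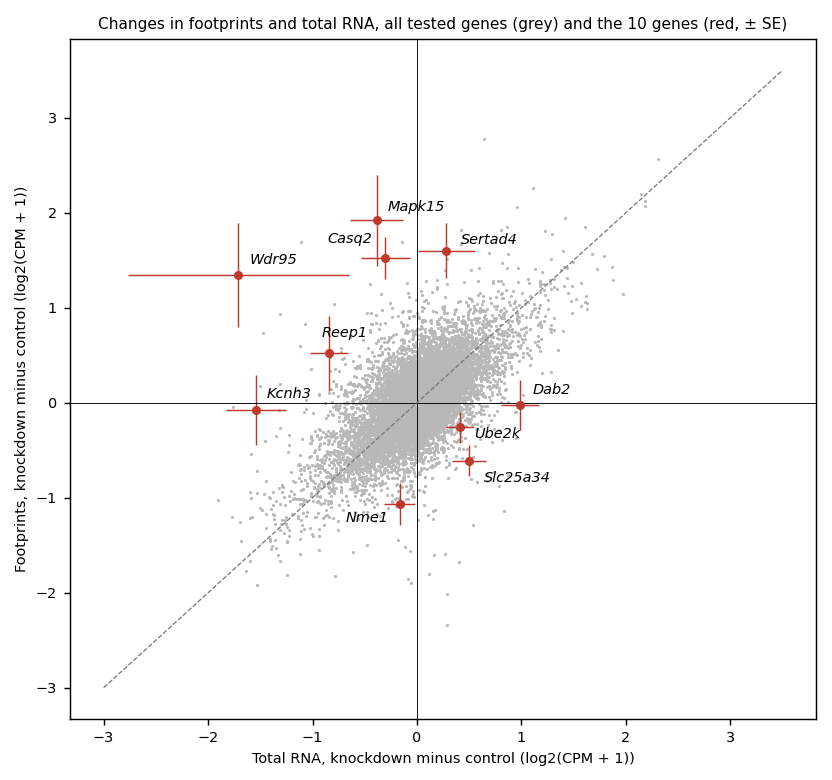
Knockdown minus control difference in footprints (vertical, log2(CPM + 1)) against that in total RNA (horizontal, same scale) for the 12358 genes tested in both assays, with the 10 genes in red (± SE) and a dashed line where both differences are equal. Casq2, Mapk15, Sertad4 and Wdr95 lie above 1 in footprints, Nme1 lies at -1.06, and Kcnh3, Reep1 and Dab2 stand off mainly along the RNA axis.

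The change in the footprint-to-RNA ratio, the interaction of assay and knockdown over all 8 libraries, ranked 7 of the 10 genes among the 100 largest in absolute size of 12358 genes. Positive values, meaning more footprints per RNA in the knockdown, were 3.06 ± 1.34 for Wdr95, 2.31 ± 0.65 for Mapk15, 1.83 ± 0.33 for Casq2, 1.46 ± 0.47 for Kcnh3, 1.36 ± 0.43 for Reep1 and 1.32 ± 0.39 for Sertad4 (log2 ± SE). Negative values were -1.11 ± 0.22 for Slc25a34, -1.01 ± 0.30 for Dab2, -0.90 ± 0.30 for Nme1 and -0.67 ± 0.21 for Ube2k. Wdr95 had rank 1 and Ube2k rank 545. The median absolute value was 1.34 over the 10 genes and 0.17 over all genes tested, a difference that the choice of the genes fixes.

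Ratio changes were more widely spread among genes with few reads. The SD of the ratio change over all genes was 0.444 where the lower of the 2 assay means lay between 1 and 3 CPM, and 0.23 where it was 100 CPM or more. Casq2, Mapk15, Kcnh3, Sertad4 and Reep1 belong to the first range and Nme1 and Ube2k to the second. Within its own range Mapk15 ranked 1 of 1778 genes and Casq2 5, while Nme1 ranked 13 and Ube2k 27 of 1761. Slc25a34, between 10 and 100 CPM, ranked 20 of 6258. Dab2, between 3 and 10 CPM, ranked 35 of 2413. The genes were chosen for a large disagreement of this kind, so these ranks are a description and no support for them. In at least 1 of the 8 libraries Casq2 and Reep1 had fewer than 10 reads, as did 8.3% of all genes in both tables.

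**Figure D3:**
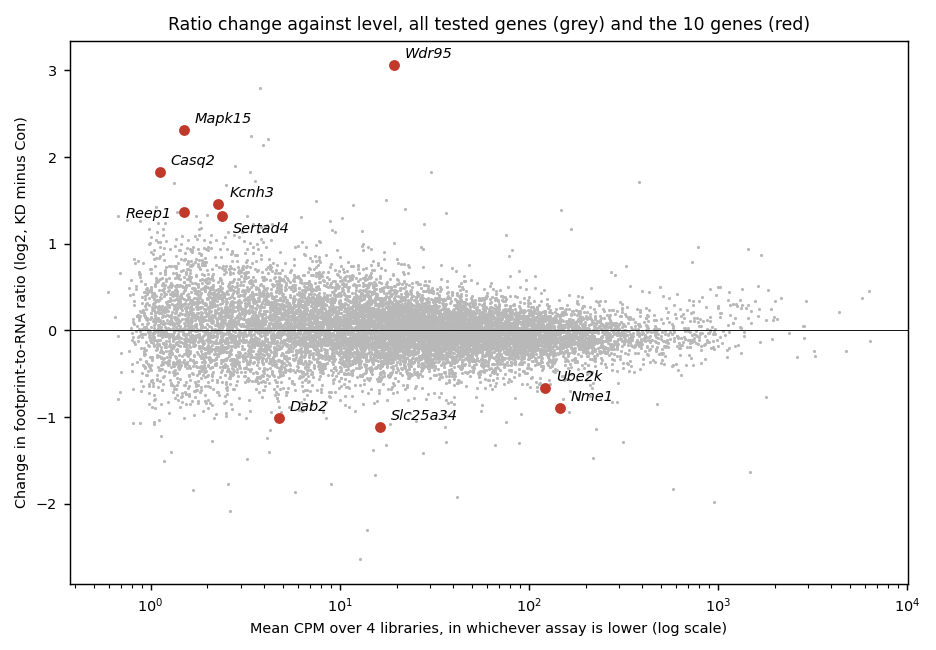
Change in the footprint-to-RNA ratio (vertical, log2, knockdown minus control) against the mean CPM in whichever assay was lower (horizontal, log axis), for all genes tested (grey) and the 10 genes (red). The grey cloud narrows from left to right, with an SD of 0.444 at 1 to 3 CPM and 0.23 at 100 CPM or more; Nme1 and Ube2k lie at its lower edge on the right.

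Leaving out each library in turn kept the sign of the ratio change for all 10 genes. They were chosen on this difference with all libraries in, so a kept sign is no independent check. The narrowest ranges were -1.06 to -0.97 for Dab2 and -1.20 to -1.02 for Slc25a34, and Casq2 ran from 1.63 to 2.02. Wdr95 ran from 1.25, without RNA control replicate 2, to 4.86, without RNA control replicate 1. Nme1 ran from -1.22 to -0.57, with the smaller size without footprint control replicate 2. Kcnh3 lay between 1.05 and 1.87, Reep1 between 0.95 and 1.77, Mapk15 between 1.58 and 3.03, Sertad4 between 1.01 and 1.63 and Ube2k between -0.78 and -0.56.

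**Figure D4:**
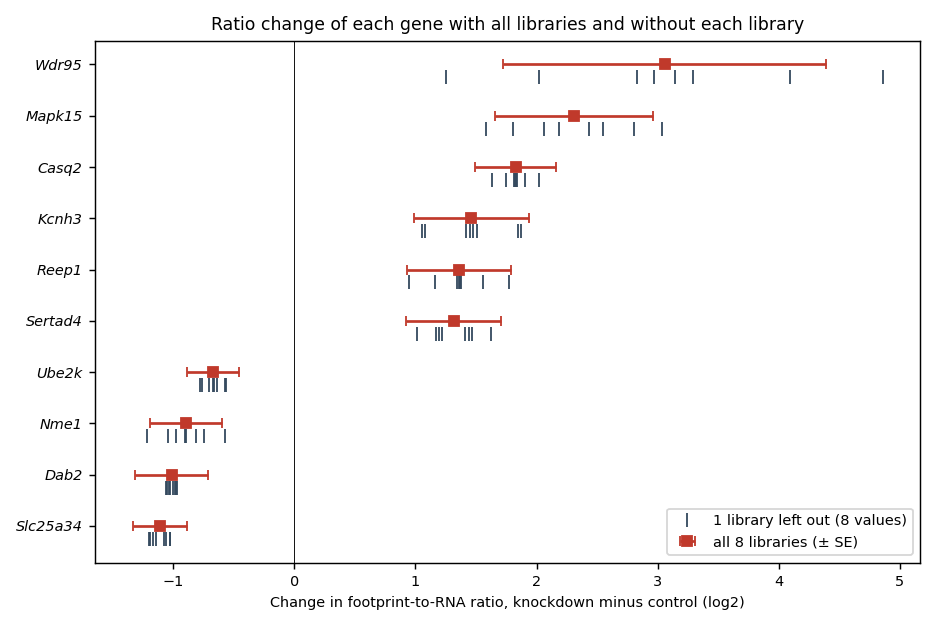
Change in the footprint-to-RNA ratio of each gene (log2, knockdown minus control), with all 8 libraries (red squares, ± SE) and with 1 library left out (dark ticks, 8 per gene). Ticks of Dab2 lie between -1.06 and -0.97, those of Wdr95 between 1.25 and 4.86.

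Over all genes, limma called 0 at an adjusted p below 0.05 in footprints, 0 in RNA and 0 in the ratio, so the background share of calls was 0% in each. Unadjusted p-values below 0.05 were found for 1636 of 12723 genes in footprints, 2002 of 13436 in RNA and 192 of 12358 in the ratio. In RNA edgeR's quasi-likelihood test also called 0 and DESeq2 called 272. With 1 library left out, limma's calls in footprints ran from 1 (control replicate 2) to 36 (knockdown replicate 2), with 20 for knockdown replicate 1 and 4 for control replicate 1. In RNA they ran from 34 (knockdown replicate 2) to 6191 (control replicate 1), with 62 for knockdown replicate 1 and 3411 for control replicate 2, and in the ratio from 0 to 1. In the authors' deposited table an FDR below 0.05 was listed for 4 of the 10 genes as higher in footprints (Casq2, Mapk15, Sertad4 and Wdr95, against 0.788% of all genes) and for 1 as lower (Nme1, against 0.889%). In RNA the authors' deposited table listed Dab2 as higher (against 2.21% of all genes) and Kcnh3, Reep1 and Wdr95 as lower (against 3.19%). Slc25a34 and Ube2k were in neither list. The same contrasts chose the genes, so these shares are no support for them. Groups that did not overlap were found in 4 of the 10 genes as higher footprints (22.4% of all genes), in 3 as lower footprints (22.4%), in 3 as higher RNA (23.3%) and in 5 as lower RNA (24.6%).

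In level, the 10 genes spread over nearly the whole range of footprint-to-RNA ratios. The ratio of mean footprint CPM to mean RNA CPM in the control had a median of 0.792 over all genes in both tables, with a 5th percentile of 0.292 and a 95th of 1.78. The tables were scaled separately and reads were not divided by length, so the ratio ranks genes only roughly. Slc25a34 had 6.32 in the knockdown, against 14.0 in the control, above 99.9% of genes in the control. Casq2 had 26.2 in the knockdown, against 5.50 in the control (above 99.7%), and Mapk15 25.6 in the knockdown, against 3.57 in the control (above 99.3%). These 3 genes thus held far more footprint reads than RNA reads in both conditions. At the other end Reep1 had 0.687 in the knockdown, against 0.17 in the control, above only 1.16% of genes, and Kcnh3 had 1.10 in the knockdown, against 0.304 in the control, above 5.61%. Dab2 had 0.919 in the knockdown, against 2.18 in the control, and Sertad4 had 3.36 in the knockdown, against 1.11 in the control.

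Because the labels do not tie a footprint library to an RNA library, the ratio was also formed over all 4 pairings in each condition. Knockdown and control ranges did not overlap for 9 of the 10 genes, 5 with a higher ratio in the knockdown (5.97% of all genes) and 4 with a lower one (4.81%), shares that the choice of the genes again fixes. Dab2 ranged from 0.895 to 0.944 in the knockdown, against 2.04 to 2.34 in the control, and Slc25a34 from 5.79 to 6.88 in the knockdown, against 12.7 to 15.4 in the control. Kcnh3 ranged from 0.476 to 2.49 in the knockdown, against 0.289 to 0.319 in the control. Wdr95 was the exception, at 2.84 to 14.5 in the knockdown, against 0.149 to 3.11 in the control.

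**Figure D5:**
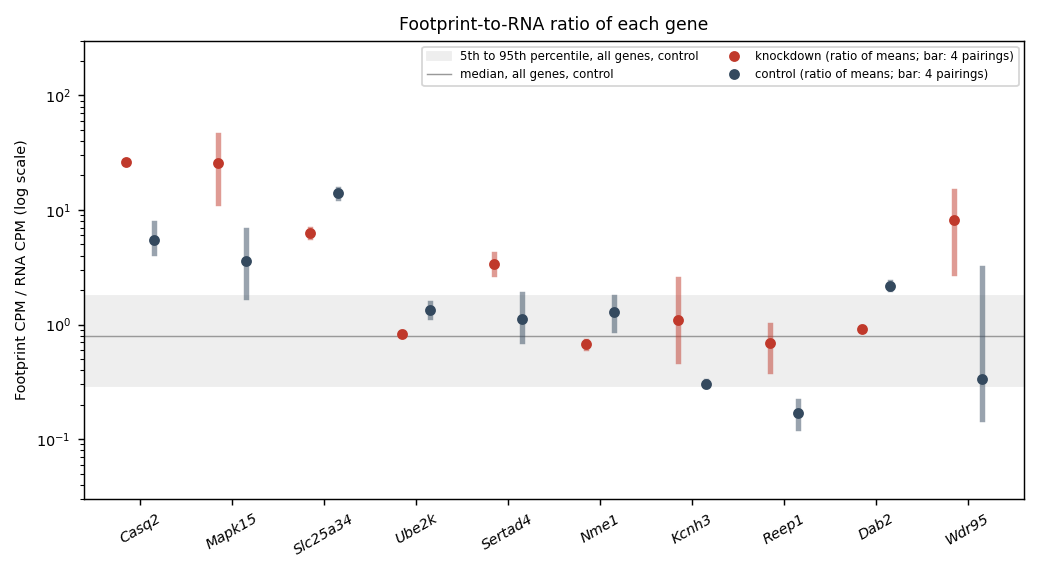
Footprint CPM over RNA CPM of each gene (log axis), with the ratio of group means as points and the range over the 4 pairings of a footprint with an RNA library as bars, knockdown in red left of control in dark. The grey band runs from 0.292 to 1.78, the 5th to 95th percentile of all genes in the control; Casq2, Mapk15 and Slc25a34 lie above it in both conditions.

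Relatives of the 10 genes were counted from lists of their families and partners, the gene itself left out. In none of the 10 lists did a relative show opposite, non-overlapping groups in the 2 assays, an arrangement held by 1.8% of all genes. limma called 0 relatives in either assay. The authors' deposited table listed as lower in footprints 2 clathrin adaptor and cargo genes and 1 calcium store gene (0.889% of all genes), and no relative as higher. In RNA the authors' deposited table listed as higher 1 gene each among the clathrin adaptor and cargo genes, the MAP kinases and the SERTA domain genes (2.21% of all genes). As lower in RNA the authors' deposited table listed 2 clathrin adaptor and cargo genes, 2 SLC25 carriers and 1 calcium store gene (3.19% of all genes). Of 33 other symbols listed for E2 ubiquitin-conjugating enzymes 32 were measured. Their ratio change had a median of -0.11 and ran from -0.75 (Ube2v1) to 0.40 (Ube2l6), beside -0.67 for Ube2k. The E2 genes with the most footprints were Birc6 (-0.16 ± 0.28), Ube2s (0.08 ± 0.24) and Ube2d3 (-0.66 ± 0.33). Of 52 other symbols listed for SLC25 carriers, taken by number, 37 were measured in both assays. Their median was 0.08 and their range -0.64 to 0.75, while Slc25a34 had -1.11. The adenine nucleotide carriers Slc25a5 (0.01 ± 0.29) and Slc25a4 (0.27 ± 0.26) and the phosphate carrier Slc25a3 (0.31 ± 0.22) had the most footprints there.

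Of 22 other calcium store proteins 18 were measured, at -0.88 (Hrc) to 0.64 (Itpr2), beside 1.83 for Casq2. Chaperones of the endoplasmic reticulum had the most footprints there, with ratio changes of 0.05 ± 0.28 for Calr, -0.20 ± 0.36 for Hsp90b1 and 0.06 ± 0.28 for Hspa5. Other MAP kinases ran from -0.86 (Mapk4) to 0.29 (Mapk11) over 12 genes, with Mapk6 at -0.49 ± 0.23 and Mapk14 at -0.06 ± 0.23, beside 2.31 for Mapk15. The 22 clathrin adaptor and cargo genes around Dab2 had ratio changes of at most 0.46 (Ap2s1), with Cltc at -0.15 ± 0.28, Ap2m1 at -0.27 ± 0.20 and Clta at 0.09 ± 0.26.

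The 3 other EAG, ERG and ELK channels measured in both assays were Kcnh2 (-0.23 ± 0.36), Kcnh6 (0.60 ± 0.41) and Kcnh4 (0.35 ± 0.38). The 15 relatives of Reep1 that shape the endoplasmic reticulum ran from -0.67 (Reep4) to 0.43 (Atl1), with Rtn4 at -0.19 ± 0.23, Arl6ip1 at 0.22 ± 0.22 and Atl2 at -0.27 ± 0.27. Of the 4 other SERTA domain genes Sertad1 was higher in both assays (0.70 ± 0.35 in footprints and 0.86 ± 0.19 in RNA), which left its ratio change at -0.16 ± 0.44. Cdca4 and Sertad3 had ratio changes of 0.17 ± 0.28 and 0.03 ± 0.32. The Nme family had 4 other measured genes at -0.36 (Nme7) to 0.34 (Nme2), with Nme4 (-0.03 ± 0.27) and Nme6 (-0.08 ± 0.26) near 0. The 7 WD40 genes of cilia measured in both assays ran from -0.70 (Dnaic1) to 0.18 (Wdr34), with Wdr35 at -0.13 ± 0.22 and Wdr19 at -0.04 ± 0.29. Ciliated cell markers, 8 of 10 measured in each assay and none at 0 (without Dnah9 and Spag6), summed to 31.8 to 33.1 CPM of RNA in the knockdown, against 40.5 to 44.5 CPM in the control. In RNA 3 of the 8 were lower and 2 higher with no overlap between groups (24.6% and 23.3% of all genes), with a median log2 difference of -0.07. Footprints of the ciliated cell markers summed to 32.5 to 37.8 CPM in the knockdown, against 43.9 to 54.9 CPM in the control. There 5 were lower and 1 higher without overlap (22.4% of all genes each way), with a median of -0.30.

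Other genes had ratio changes above those of most of the 10, though below that of Wdr95. Among 11377 further genes with at least 10 reads in each library, the largest positive values belonged to Gm23230 (2.80 ± 0.90), Ebf4 (2.24 ± 0.94) and Fam124a (2.14 ± 1.03), and the largest negative ones to Mir291a (-2.63 ± 0.63), Mir292 (-2.30 ± 0.83) and Gm10548 (-2.08 ± 0.79). Their errors were larger than those of most of the 10 genes. Fam124a had 393 and 60.2 CPM of footprints in the knockdown, against 39.2 and 11.7 CPM in the control, with footprint knockdown replicate 1 far above the rest. Gm23230 and Ebf4 are among the 8 genes that stood out in footprint knockdown replicate 1 and RNA control replicate 2, and Ebf4 RNA was at 1.18 and 1.43 CPM in the knockdown, against 1.60 and 11.5 CPM in the control. Mir291a and Mir292 encode microRNA precursors.

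Genes beside and across the 10 were read from RefSeq's gene table (GRCm38.p6, a build other than the mm9 of the authors, so positions are not given). In that table the only protein-coding gene to overlap one of the 10 was Mcrs1, which overlaps Kcnh3. Mcrs1 had a footprint difference of -0.20 and an RNA difference of 0.05, unlike the -1.54 of Kcnh3 RNA. Wdr95, Kcnh3, Dab2, Sertad4 and Ube2k were each overlapped by at least 1 long noncoding RNA gene and Dab2 also by a pseudogene, none of them analysed here. No source used here states whether reads were counted by strand, so reads of overlapping genes cannot be told apart. Plekhm2, next to Slc25a34, was higher in both assays (0.59 in footprints and 0.48 in RNA). Smim14, next to Ube2k, was lower in both (-0.45 in footprints and -0.61 in RNA), whereas Ube2k RNA was higher.

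Sequence upstream of the transcription start is shown for Casq2, Slc25a34, Ube2k, Reep1 and Dab2, the genes with RNA groups opposite to their footprints or listed by the authors in RNA for which RefSeq's promoter table has an entry. That table matched 7 of the 10 genes, with 10 start sites. Each sequence covers the 100 bases before an annotated start, read 5′ to 3′ on the gene's own strand, from RefSeq on GRCm38.p6. Capitals mark matches on either strand to the motif TATAAA, to the motif CCAAT or to the motif GGGCGG.
Casq2, chr3:102086315-102086414, plus strand: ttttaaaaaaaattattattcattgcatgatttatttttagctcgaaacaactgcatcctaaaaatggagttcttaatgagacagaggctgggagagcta
Slc25a34, chr4:141623835-141623934, minus strand: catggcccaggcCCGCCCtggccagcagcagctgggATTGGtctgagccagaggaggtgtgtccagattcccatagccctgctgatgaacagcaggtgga
Ube2k, chr5:65537145-65537244, plus strand: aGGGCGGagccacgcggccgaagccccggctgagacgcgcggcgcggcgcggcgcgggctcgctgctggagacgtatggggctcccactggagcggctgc
Reep1, chr6:71707581-71707680, plus strand: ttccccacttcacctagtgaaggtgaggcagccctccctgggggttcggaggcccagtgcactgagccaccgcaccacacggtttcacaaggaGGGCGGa
Dab2, first start, chr15:6299689-6299788, plus strand: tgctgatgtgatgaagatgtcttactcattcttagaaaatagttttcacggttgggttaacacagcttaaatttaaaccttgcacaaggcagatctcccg
Dab2, second start, chr15:6386648-6386747, plus strand: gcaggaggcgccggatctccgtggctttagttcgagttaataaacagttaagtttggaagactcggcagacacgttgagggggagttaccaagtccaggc

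Over all 32851 windows of this length in the table, TATAAA was found in 5.56%, CCAAT in 18.9% and GGGCGG in 24.7%. GGGCGG was present before Slc25a34, Ube2k and Reep1, and CCAAT before Slc25a34, and none of the 3 was found in the Casq2 window or in either Dab2 window. The windows differ most in base composition. GC content was 31% before Casq2, lower than in all but 2.56% of windows, and 79% before Ube2k, higher than in 95.04% of them. Dab2 had 39% and 53%, Reep1 64% and Slc25a34 63%, against a median of 55% over all windows.

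The first 50 bases after the start, the beginning of the mRNA leader, ranged from 42% GC at the first start of Dab2 to 82% at one start of Sertad4, around a median of 56% over all windows. Reep1 had 74%, Ube2k 76%, Casq2 60%, Slc25a34 62% and the 2 starts of Nme1 58% and 62%. Each start of Casq2, Reep1 and Sertad4, whose ratio was higher in the knockdown, lay above that median, and so did those of Slc25a34, Ube2k and Nme1, whose ratio was lower, while the starts of Dab2 had 42% and 56%. None of the 10 starts had a C followed by 4 pyrimidines, the letters of a terminal oligopyrimidine start, which 2.51% of all starts had.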

How the data were processed

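Ribosome footprints and total RNA of mouse J1 embryonic stem cells were measured with shRNA against eIF4A2 or control shRNA, with 2 libraries in each of 4 groups; footprint libraries were sequenced 4 times with single-end 50 bp reads, per the labels' protocols. The authors deposited 1 table per assay (12818 genes for footprints, 13436 for total RNA), already without genes of few reads. Library columns hold a signal that the authors made by dividing reads by an effective library size, written here as CPM. Further deposited columns are the authors' log2 fold change and mean log2 CPM, a likelihood ratio (a score) and a p-value with its FDR. Per the submitters' processing notes, the tools were edgeR (3.26.8), HTSeq (0.11.2), TopHat2 (2.1.1) and Bowtie (1.2.3) on build mm9, with no role named.

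Each value was a whole multiple of the lowest nonzero value of its column, within 0.01 read for 100% of genes, which gave back the reads. In footprint control replicate 2 that step was 0.0991 CPM, near 0.1, but values there were not rounded to 0.1 (Wdr95 at 9.51 CPM, 96 reads). Count tests were run on total RNA only, and none was run on footprints. limma 3.58.1 (R 4.3.3) on log2(CPM + 1), with a mean-dependent prior variance and p-values adjusted after Benjamini and Hochberg, compared knockdown with control in each assay and, as the interaction over 8 libraries, in the footprint-to-RNA ratio. Genes were kept by edgeR 4.0.16's filterByExpr (minimum count 10, total 15), which all 10 genes passed in both assays. Alternatives were other pseudocounts, filters and scalings, a replicate block, leaving out libraries, edgeR's quasi-likelihood test and DESeq2 1.42.0. The pipeline was run on simulated data with large differences planted in well-covered genes and a small set spread between replicates. That run does not cover genes with few reads. With 2 libraries against 2, the smallest exact two-sided p of a single gene would be above any usual threshold, so p-values come from limma's model over all genes.

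The genes, family lists, markers and tests were chosen with earlier results of these data known. Named beside the 10 genes were Eif4a2, the 3 relatives per list with the most footprints, the ends of each list's range, the 3 largest ratio changes each way among genes with at least 10 reads per library, and overlapping or adjacent RefSeq genes. Results of some genes that this rule names are not reported here. Fibroblast markers, 6 of 10 measured in each assay and none at 0, summed to 27.4 to 29.9 CPM of RNA in the knockdown, against 22.6 to 32.6 CPM in the control, and to 31.5 to 32.6 CPM of footprints in the knockdown, against 24.8 to 34.5 CPM in the control. Summed footprints of the stem cell markers were 5000 to 5064 CPM in the knockdown, against 6881 to 7227 CPM in the control. There 6 of the 10 were lower and 2 higher with no overlap between groups (22.4% of all genes each way).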

Additional observations from a re-analysis of the deposited data

Results flagged for a closer look

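The libraries of 4 genes all lay one way in footprints and all the other way in RNA, and the genes were picked for such a disagreement. The log2 change in the footprint-to-RNA ratio (knockdown minus control) was 1.83 for Casq2, 2.31 for Mapk15, -1.11 for Slc25a34 and -0.67 for Ube2k. The limma interaction of assay and knockdown called none of the 4 (0 of 12358 genes, with 192 at an unadjusted p below 0.05), and since the genes were chosen for this difference no p-value of their own is given. In Casq2 and Mapk15 the RNA side rests on 9 to 21 reads per library, and in Slc25a34 and Ube2k on 116 to 1870.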

How the results depend on the processing

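Of 406 values of the 10 genes under alternatives, 378 moved by less than the spread between replicates and 6 changed sign. The 378 are no measure of stability. Filters, replicate blocks and a constant prior variance leave the log2 difference unchanged by construction, as with Wdr95 RNA at -1.71. Leaving out 1 library is judged against a spread taken from the same libraries. Wdr95 RNA thus counted among the 378 at 0.09 without control replicate 2 and at -3.51 without control replicate 1. Scaling each table to its read total moved the median footprint difference of all genes to 0.12 from 0.01, and with it Kcnh3 (0.01) and Dab2 (0.08) footprints were no longer negative; without footprint control replicate 1 Dab2 was at 0.02. No ratio change of the 10 genes changed sign, which is no independent check since the genes were chosen on that change.

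Calls of limma over all genes were 0 with all libraries and moved as follows. Leaving out 1 library gave 1 to 36 in footprints (36 lacking knockdown 2, 20 lacking knockdown 1, 4 lacking control 1, 1 lacking control 2), 34 to 6191 in RNA (62 and 34 lacking knockdown 1 and 2, 6191 and 3411 lacking control 1 and 2) and 0 to 1 in the ratio (1 without footprint knockdown 2 and 1 without footprint control 1). In such fits a group with 1 library is assumed to vary like the other group. Scaling to the read total gave 21 in footprints, and DESeq2 gave 272 in RNA. The cause was not tested. A replicate block gave 21 calls in footprints, 636 in RNA and 1 in the ratio within assays, and 0 with footprints paired to RNA by number. Same-numbered libraries deviated from their group means with an r of 0.231 in footprints and -0.275 in RNA across genes, so the numbers are not taken to pair the samples; with crossed numbers, added after seeing the data, RNA gave 924. Leaving out libraries gave 6 to 8 of the 10 genes with opposite directions and 4 to 6 with opposite, non-overlapping groups, also added after seeing the data. The second number could not fall below 4, since leaving out a library cannot create an overlap. With few reads, the RNA of Casq2 and Mapk15 and the footprints of Reep1 and Kcnh3 limit what can be read.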
